A study of Homo sapiens with 12 samples.

Results

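Of the 12 RNA-seq libraries, 6 held between 449 and 1512 raw counts of IL1B, the gene of the inflammatory cytokine interleukin-1 beta, and the other 6 held between 2 and 12. The libraries were divided at a raw IL1B count of 100, which made siNC replicates 2, 3 and 6 and siZCC replicates 1, 4 and 5 the high IL1B libraries, and siNC replicates 1, 4 and 5 and siZCC replicates 2, 3 and 6 the low IL1B libraries. No label of the samples names this division, and the libraries were chosen by their IL1B counts in these same data. Differences between the classes are therefore given as a description. An adjusted p under 0.05 serves below only as a fixed mark, written "called", and no p-value of this comparison is read as a test.

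The cells were neurons made from induced pluripotent stem cells of the established human fibroblast line IMR-90. In the 6 siNC libraries they had received a negative control siRNA, and in the 6 siZCC libraries an siRNA against ZCCHC17, the gene of a zinc finger protein. All libraries are of this 1 cell line. The sample titles also hold an unexplained abbreviation, NPC. Nothing says whether replicates were separate cultures, so the errors below measure the spread between these samples.

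Interleukin-1 beta is made as an inactive precursor, chiefly by monocytes, macrophages and microglia, after receptors for microbial or damage-derived molecules activate the transcription factor NF-kB. The same signal raises other first-response genes: the CXC chemokines that attract neutrophils, the CC chemokines that attract monocytes, IL6 and the prostaglandin enzyme PTGS2. Interleukin-1 beta in turn acts through its receptor IL1R1 on many cell types, astrocytes and neurons among them, and again activates NF-kB there.

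Library totals were alike in the classes, at 76115083 to 117909290 counts in the high and 90308230 to 120023356 in the low libraries. Within siZCC, however, the 3 high libraries were also the 3 smallest, at 76115083 to 85339499 counts against 90308230 to 105389055. Mitochondrial transcripts took 4.18 to 4.51% of counts in the high and 4.02 to 4.36% in the low libraries. ZCCHC17 was at 54.0 to 61.0 counts-per-million (CPM) in siNC and 9.37 to 10.6 in siZCC, and in each group the 2 classes overlapped. Each of the 6 replicate numbers, which both siRNA groups carry, held exactly 1 high and 1 low library. What the number stands for is not stated, and the number of a library does not give its class.

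IL1B (chr2:112829751-112836903, GRCh38, minus strand, protein-coding) was at 6.05, 5.23 and 13 CPM in the high siNC libraries and at 5.30, 16.0 and 10.4 CPM in the high siZCC libraries. In the low libraries it was at 0.0358, 0.0766 and 0.100 CPM in siNC and at 0.0761, 0.0223 and 0.0530 CPM in siZCC. The library nearest to the dividing count on the high side, siZCC replicate 1, had 449 counts, and the nearest on the low side, siNC replicate 5, had 12. No library lay between, and both siRNA groups held 3 libraries of each class.

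Of 24671 genes kept by the filter on low counts, 36 (0.146%) were called in the fit with siRNA group as covariate, 25 (0.101%) higher and 11 (0.0446%) lower in the high IL1B libraries. These shares follow from the rule that divided the libraries and nothing is read from them. The count was 57 without siNC replicate 6, 371 without the filter on low counts and 15 among genes with a mean count of at least 50. All 36 had their 6 high libraries entirely above or entirely below their 6 low ones, as did 67 kept genes (0.272%) in all. A looser count, of genes whose classes did not overlap in either siRNA group and differed the same way, gave 92 higher (0.373%) and 61 lower (0.247%). What chance alone would give was not worked out, so these counts of genes without overlap are descriptions. Of the called genes, 22 were at least 2-fold higher and 8 at least 2-fold lower. They were genes of low level: 28 had a mean under 1 CPM, and CXCL8 alone averaged 5 CPM or more, among 12625 kept genes at that level. Together the 36 took 0.00379 to 0.00753% of the counts of a high library and 0.00199 to 0.00277% of a low one. Of the 25 higher genes, 10 reached the CPM of the filter in no low library, and of the 11 lower genes 3 reached it in no high library, so these were kept for testing only through the class in which they were higher.

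**Figure D1:**
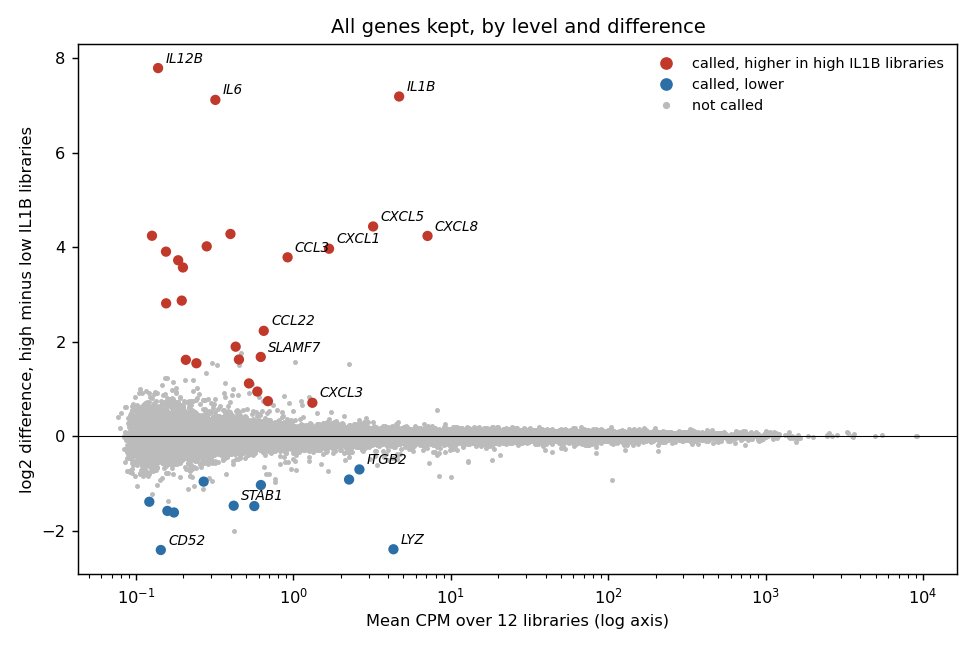
Each point is 1 of the 24671 kept genes, placed by its mean CPM over the 12 libraries (log axis) and its log2 difference between high and low IL1B libraries; the 25 called genes that were higher are red, the 11 that were lower are blue. The called genes lie at the low end of the level axis, with CXCL8 the only one above 5 CPM, and the band of other genes narrows around 0 as the level increases.

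Over those 12625 genes the median absolute log2 difference between the classes was 0.04 and its 99th percentile 0.17. Of these genes 4 differed by 1.5-fold or more. They were CXCL8 and 3 genes, named after their values were seen, that were not called: COL1A1, the fibrillar collagen gene, at 72.0 ± 38.3 CPM in the high and 139.7 ± 85.1 in the low libraries (SD, n = 6 each), ITGA11, a collagen receptor subunit, at 7.15 ± 3.18 and 13 ± 6.21 CPM, and KRT17, a keratin, at 5.95 ± 3.09 and 10.7 ± 7.74 CPM. For these 3 the classes overlapped in both siRNA groups.

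The chemokines with a glutamate-leucine-arginine (ELR) motif, which attract neutrophils through the receptors CXCR1 and CXCR2, held the most called genes of any list apart from the given markers. Of 7 listed and kept, 6 were called higher (against 0.101% of all kept genes) and 0 lower. The list median log2 difference was 3.72, which is the value of PPBP, against -0.0028 over all kept genes. PPBP reached the CPM of the filter in no low library and was kept only through the high ones, so nothing is read from the count or the median. CXCL8, the gene of interleukin-8, was at 11.9, 9.97 and 16.8 CPM in high and 1.11, 0.722 and 0.500 CPM in low siNC libraries. In siZCC it was at 10.3, 19.2 and 12.9 CPM in high and 0.447, 0.813 and 0.689 CPM in low libraries. The lowest high library was thus far above the highest low library, and the fitted log2 difference was 4.24 (SE 0.21), or 18.9-fold.

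CXCL5 ran from 3.05 to 11.1 CPM (median 5.43) in the high libraries and from 0.0717 to 0.533 CPM (median 0.226) in the low ones, a log2 difference of 4.44 (SE 0.43). CXCL1, also called GRO-alpha, ran from 2.10 to 4.53 CPM (median 2.93) in the high and from 0.0848 to 0.367 CPM (median 0.181) in the low libraries, a log2 difference of 3.97 (SE 0.28). PPBP, a platelet basic protein gene of the same cluster, had 9 to 63 counts in the high and 0 to 5 in the low libraries, a log2 difference of 3.72 (SE 0.62). CXCL2 and CXCL3, the close relatives of CXCL1, differed far less, by 0.75 (SE 0.13) and 0.71 (SE 0.12) on the log2 scale. CXCL3 was at 1.26 to 1.99 CPM in the high and 0.824 to 1.20 CPM in the low libraries, which came near to each other without overlapping. With 1 library left out in turn, CXCL2 lost its call in 9 of 12 fits, CXCL3 in 5 and PPBP in 1 (without siZCC replicate 2), while the sign stayed. Because CXCL1, CXCL2 and CXCL3 are similar in sequence, reads may have been shared among them in counting.

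CXCL6 was the ELR chemokine that was not called. It was at 0.178, 0.110 and 0.223 CPM in the high and 0.824, 0.164 and 0.0917 CPM in the low siNC libraries, and at 0.201, 0.120 and 0.134 CPM in the high and 0.295, 0.234 and 0.138 CPM in the low siZCC libraries. The classes overlapped in both groups, and the log2 difference was -0.86 (SE 0.44). That value rested on siNC replicate 1, at 0.824 CPM: without it the log2 difference was -0.11 (SE 0.30). In the fit of all 12 libraries without the filter on low counts, CXCL6 was called lower. All 7 genes lie in 1 cluster on chromosome 4 (GRCh38, GENCODE release 29): CXCL8 at chr4:73740506-73743716, CXCL6 at chr4:73836497-73849064 and CXCL1 at chr4:73869393-73871242 on the plus strand, then PPBP at chr4:73987038-73988197, CXCL5 at chr4:73995642-73998779, CXCL3 at chr4:74036589-74038807 and CXCL2 at chr4:74097035-74099293 on the minus strand. CXCL6 thus sits between CXCL8 and CXCL1, both of which were higher in every high library.

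The promoters of these chemokines are shown because neighbours with the same match at nearly the same place differed in how they went with the division. Each line gives the 150 bases before the RefSeq start on the gene's own strand (RefSeq, build GRCh38.p14), with every match to GGNNNTTCC on either strand in capitals, a simple form of the NF-kB site. The windows are CXCL8 chr4:73740419-73740568 (plus strand), CXCL6 chr4:73836528-73836677 (plus), CXCL1 chr4:73869243-73869392 (plus), CXCL5 chr4:73998678-73998827 (minus), CXCL3 chr4:74038690-74038839 (minus), CXCL2 chr4:74099196-74099345 (minus) and IL6 chr7:22727050-22727199 (plus).
CXCL8: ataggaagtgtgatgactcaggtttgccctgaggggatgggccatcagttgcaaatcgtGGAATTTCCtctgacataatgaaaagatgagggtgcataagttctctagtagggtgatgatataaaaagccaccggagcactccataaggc
CXCL5: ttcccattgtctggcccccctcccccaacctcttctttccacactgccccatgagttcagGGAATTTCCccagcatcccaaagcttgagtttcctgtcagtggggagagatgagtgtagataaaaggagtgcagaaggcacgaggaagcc
CXCL6: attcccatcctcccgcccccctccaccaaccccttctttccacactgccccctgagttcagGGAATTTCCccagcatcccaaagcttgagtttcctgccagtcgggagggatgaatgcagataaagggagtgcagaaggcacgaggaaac
CXCL1: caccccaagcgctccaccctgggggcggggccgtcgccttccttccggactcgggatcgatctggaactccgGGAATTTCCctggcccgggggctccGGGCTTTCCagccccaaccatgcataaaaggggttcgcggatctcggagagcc
CXCL2: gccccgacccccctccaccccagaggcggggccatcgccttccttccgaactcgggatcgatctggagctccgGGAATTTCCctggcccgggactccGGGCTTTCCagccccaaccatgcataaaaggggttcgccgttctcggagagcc
CXCL3: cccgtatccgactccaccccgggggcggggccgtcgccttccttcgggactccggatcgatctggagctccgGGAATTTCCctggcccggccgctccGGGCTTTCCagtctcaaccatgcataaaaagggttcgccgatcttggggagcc
IL6: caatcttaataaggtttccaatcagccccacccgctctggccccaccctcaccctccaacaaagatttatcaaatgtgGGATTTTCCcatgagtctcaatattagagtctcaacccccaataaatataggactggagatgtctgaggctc

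CXCL5 and CXCL6 carry the same 9 letters, with the first base at -90 and -89 from the start, yet CXCL5 differed by 4.44 on the log2 scale between the classes and CXCL6 by -0.86, or by -0.11 without siNC replicate 1. CXCL1, CXCL2 and CXCL3 each carry a pair of matches, at -78 and -53, -77 and -53, and -78 and -53, and their log2 differences were 3.97, 0.75 and 0.71. CXCL8 has its match at -91 and IL6 at -72. The IL1B window has no match to these letters, which says only that they are not in the 250 bases scanned. In windows of 250 bases before the start, GGNNNTTCC was in 6 of the 19 higher genes with an entry (31.6%), in 1 of 6 lower genes (16.7%) and in 5512 of 27305 genes of the RefSeq table (20.2%). TTNNGNAA, a simple form of the C/EBP site, was in 12 of 19 (63.2%), 2 of 6 (33.3%) and 38.1% of all genes, and TGANTCA, a simple form of the AP-1 site, in 4 of 19 (21.1%), 0 of 6 and 8.06%. Both strands were searched, matches of the 3 forms may overlap, and neighbouring members of a gene cluster share ancestry, so these shares are a description.

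**Figure D2:**
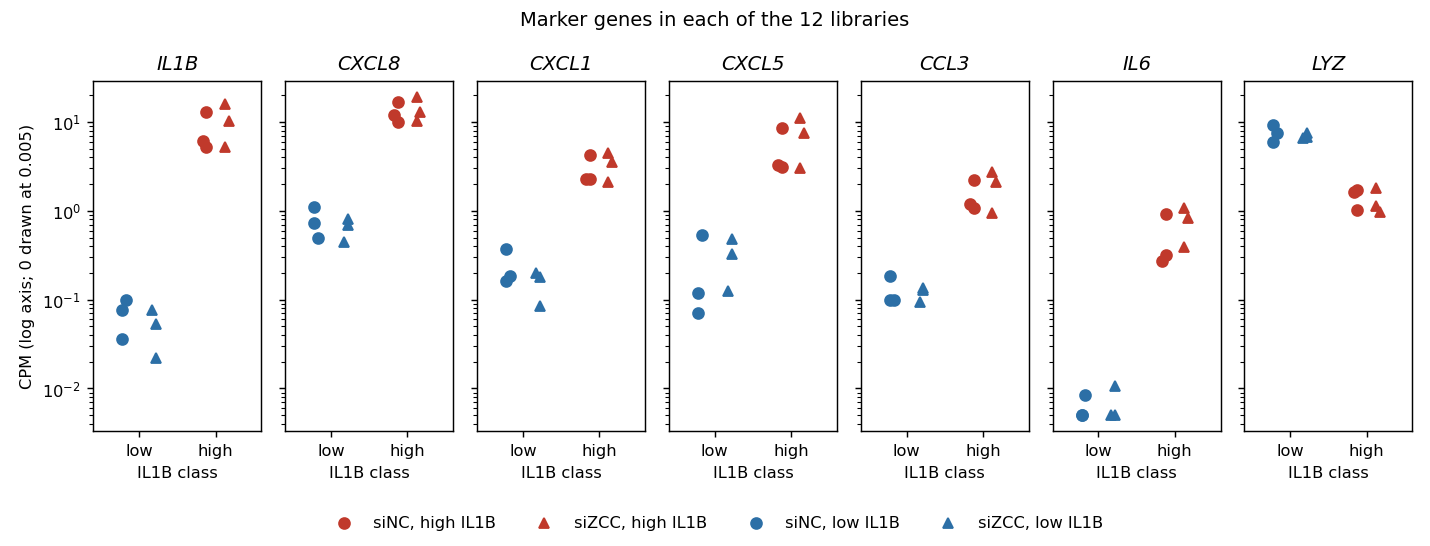
Each panel shows the CPM of 1 marker gene (log axis, a count of 0 drawn at 0.005) in the 12 libraries, with low and high IL1B classes side by side, circles for siNC and triangles for siZCC. IL1B, CXCL8, CXCL1, CXCL5, CCL3 and IL6 are higher in all 6 high libraries in both siRNA groups, and LYZ is lower in all 6.

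Among cytokines of the interleukin families, IL6, IL12B and IL1A went with IL1B. IL6 (chr7:22725884-22732002, plus strand), the fever and acute-phase cytokine, had 32 to 107 counts in the high libraries and 0 or 1 in the low ones, where 4 of 6 libraries had no count. The ratio of its summed CPM was 185, with a 95% interval for counting error of 50.8 to 1532. IL12B (chr5:159314783-159330887, minus strand), the p40 subunit shared by interleukins 12 and 23, had 17 to 37 counts in every high library and 0 in all 6 low libraries. Against a floor of 3 counts over the 6 low libraries, it was at least 55.3-fold higher. IL1A (chr2:112773915-112784590, minus strand), the neighbour of IL1B and the gene of interleukin-1 alpha, was at 0.177 to 0.602 CPM in the high and 0.0424 to 0.05 CPM in the low libraries, a log2 difference of 2.87 (SE 0.38).

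Of 20 listed genes of the IL-1 family and its receptors 10 were kept, of which IL1A and IL1B were called higher and 0 lower, and the median log2 difference of the 10 was -0.0028. Over all kept genes 0.101% were called higher. The IL1B counts made the division, and IL1A reached the CPM of the filter in no low library, so neither call is a result about the family. The receptor subunits IL1R1 (log2 difference -0.27, SE 0.17) and IL1RAP (-0.17, SE 0.06) and the cytokines IL18 (-0.18, SE 0.20) and IL33 (-0.09, SE 0.08) were not called. IL1RAP was called in siZCC alone, at -0.29, and without the filter on low counts, at -0.16. Under the filter, IL36G had 32 counts summed over the high and 5 over the low libraries and was called in the fit without it, with classes that overlapped. IL1RN, the secreted antagonist of the IL-1 receptor, was at 0.704 to 1.20 CPM in the high and 0.350 to 1.10 CPM in the low libraries. Its log2 difference was 0.51 (SE 0.20), and the classes overlapped. IL1RN was not called, but it was called higher without the filter on low counts. In the IL-6 family IL6 was the 1 gene called of 14 kept, and the list median was -0.07. In the tumour necrosis factor family TNFSF15, the ligand TL1A, was the 1 gene called of 13 kept. It was at 0.203 to 0.708 CPM in the high and 0 to 0.0571 CPM in the low libraries, a log2 difference of 3.57 (SE 0.44). Like IL1A, IL6 and TNFSF15 were kept only through the high libraries. TNF itself was under the filter, with 66 counts summed over the high and 34 over the low libraries.

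Of the CC chemokines, which attract monocytes and lymphocytes, 24 of 25 listed were in the table and 7 were kept. Of these, 4 were called higher (against 0.101% of all kept genes) and 0 lower, and the median log2 difference of the 7 was 2.23. CCL4 and CCL3L3 reached the CPM of the filter in no low library and were kept only through the high ones, so nothing is read from the count or the median. CCL3, or MIP-1 alpha (chr17:36088256-36090169, minus strand), was at 0.945 to 2.71 CPM (median 1.66) in the high and 0.0951 to 0.186 CPM (median 0.114) in the low libraries, a log2 difference of 3.79 (SE 0.30). CCL4, or MIP-1 beta (chr17:36103590-36105621, plus strand), differed by 4.02 (SE 0.40) and CCL3L3 by 4.28 (SE 0.45) on the log2 scale. CCL3 and CCL3L3 are near-identical copies, as are CCL4 and CCL4L2, so how reads were divided between the members of each pair is uncertain. CCL22 (chr16:57358772-57366190, plus strand), a ligand of CCR4 made by macrophages and dendritic cells, was at 0.838 to 1.5 CPM in the high and 0.134 to 0.372 CPM in the low libraries, a log2 difference of 2.23 (SE 0.20).

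CCL2, the monocyte chemokine MCP-1, did not go with the other CC chemokines. It was at 12.7 to 25.5 CPM (median 18.6) in the high and 14.7 to 24.4 CPM (median 17.3) in the low libraries, with a log2 difference of 0.00 (SE 0.12). CCL24 and CCL25 were not called either, at -0.58 (SE 0.31) and 0.10 (SE 0.12). Without the filter on low counts CCL24 was called lower. No chemokine receptor was called among 7 kept, and no gene of 4 kept in the list of other CXC and CX3C chemokines. Of all kept genes 0.146% were called.

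NF-kB was covered by a list of further response genes, without chemokines and interleukin-1, and by a list of its subunits and inhibitors. Of 19 kept response genes, 2 were called higher (against 0.101% of all kept genes) and 0 lower, and the list median was -0.02. The 2 were PTGS2 (chr1:186671791-186680427, minus strand), the inducible cyclooxygenase that starts prostaglandin synthesis, at 0.312 to 1.17 CPM against 0.109 to 0.266 CPM, and TNFAIP6 (chr2:151357592-151380048, plus strand), a secreted hyaluronan-binding protein, at 0.169 to 0.352 CPM against 0.0111 to 0.0537 CPM. Their log2 differences were 1.90 (SE 0.36) and 2.81 (SE 0.31). TNFAIP6 reached the CPM of the filter in no low library and was kept only through the high ones. With 1 library left out in turn, PTGS2 lost its call in 7 of 12 fits. The adhesion molecules ICAM1 (-0.15, SE 0.08) and VCAM1 (-0.07, SE 0.05) and the antioxidant enzyme SOD2 (0.08, SE 0.03) were not called. Of the 19 kept NF-kB subunits and feedback inhibitors 0 were called (against 0.146% of all kept genes), with a median of 0.02. The inhibitor NFKBIA differed by 0.02 (SE 0.04) and TNFAIP3 by 0.08 (SE 0.08). Toll-like receptors and their adaptors had 0 of 17 kept genes called, where 0.146% of all kept genes were called. TLR8 and TLR2 had the 2 highest log2 differences of that list, at 1.14 (SE 0.26) and 1.03 (SE 0.38), without passing the threshold.

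**Figure D3:**
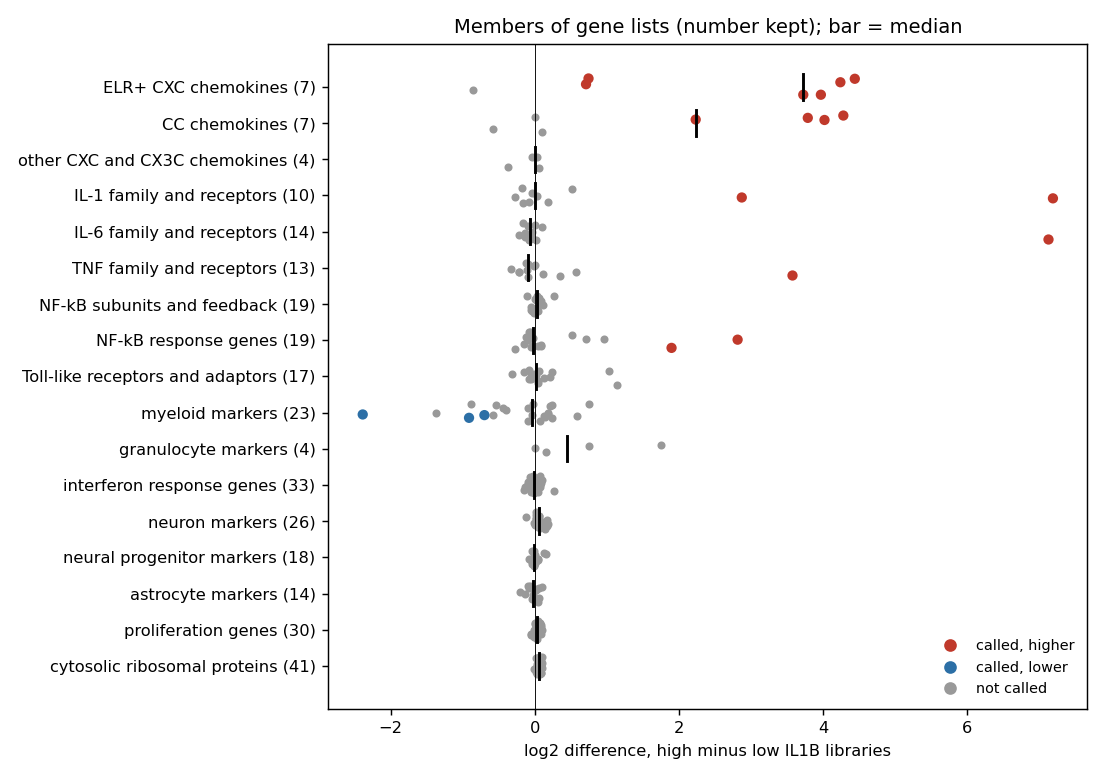
Each row is a gene list with the number of its kept genes in brackets, each point 1 gene at its log2 difference between high and low IL1B libraries (red, called and higher; blue, called and lower; grey, not called) and the black bar the list median. The ELR chemokines and CC chemokines spread to the right, single genes of the cytokine lists stand apart, the called myeloid markers lie to the left, and the neuron, progenitor, astrocyte and ribosomal lists stay close to 0.

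Of the higher genes 9, IL12B among them, belonged to no list and were picked out after their values were seen. Those with over 10-fold differences besides IL12B were FPR2, a receptor for formylated peptides on phagocytes, at 0.118 to 0.360 CPM against 0 to 0.0219 CPM (log2 difference 4.24, SE 0.46), and IDO1, the tryptophan-degrading enzyme induced by inflammatory signals, at 0.153 to 0.404 CPM against 0 to 0.0656 CPM (3.91, SE 0.52). SLAMF7, a receptor of the SLAM family on leukocytes, was at 0.819 to 1.15 CPM in the high and 0.181 to 0.427 CPM in the low libraries (1.68, SE 0.16). The others were C15orf48 (log2 difference 1.63), the fatty acid receptor GPR84 (1.62), the haematopoietic myosin MYO1G (1.55), the glycerol channel AQP9 (1.12) and the proteoglycan SRGN (0.95). With 1 library left out in turn, GPR84 lost its call in 10 and MYO1G in 6 of 12 fits, and IDO1 differed by 4.76 without siNC replicate 4. In the annotation FPR2 is overlapped by FPR1 on the other strand, so reads of these 2 genes may have been shared.

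Of the 11 lower genes, LYZ (chr12:69348341-69354234, plus strand), the gene of lysozyme, which breaks bacterial cell walls, was at 1.61, 1.71 and 1.03 CPM in the high and 5.88, 9.19 and 7.55 CPM in the low siNC libraries. In siZCC it was at 1.83, 1.13 and 0.959 CPM in the high and 6.63, 7.46 and 6.81 CPM in the low libraries. The highest high library was below the lowest low library, and LYZ was 5.23-fold lower, a log2 difference of -2.39 (SE 0.14). LYZ was given as a marker with the 6 inflammatory genes, and it went the opposite way to all 6. CD52, a small surface glycoprotein of leukocytes, had 0 to 9 counts in the high and 15 to 34 in the low libraries, a log2 difference of -2.40 (SE 0.31).

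CYBB, the catalytic subunit of the phagocyte NADPH oxidase, was at 1.12 to 1.90 CPM in the high and 2.58 to 4.06 CPM in the low libraries (log2 difference -0.91, SE 0.12). ITGB2, the beta-2 integrin subunit of leukocytes, was at 1.74 to 2.47 CPM and 2.78 to 4.34 CPM (-0.70, SE 0.11). PECAM1, an adhesion molecule of endothelial cells, platelets and leukocytes, was at 0.136 to 0.236 CPM and 0.322 to 0.425 CPM (-0.96, SE 0.17). It was the 1 gene called of 8 kept endothelial markers, whose median was -0.05 and whose highest log2 difference was 0.28. Lymphocyte markers had 0 of 7 kept genes called, where 0.146% of all kept genes were called. The other lower genes, which like CD52 were in no list and chosen after their values were seen, were the SLAM-family receptor CD84 (log2 difference -1.61), the adhesion molecule JAML (-1.58), the gluconeogenic enzyme FBP1 (-1.47), the scavenger receptor STAB1 (-1.47), the adaptor FYB1 (-1.38) and the leukocyte-specific protein LSP1 (-1.03). FYB1 lost its call in 9, PECAM1 in 7, CD84 in 4 and JAML in 3 of 12 such fits. The SLAM-family genes of chromosome 1 SLAMF7 (chr1:160739057-160754821) and CD84 (chr1:160541095-160579516) thus went in opposite directions.

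Markers of the cells that the cultures could hold were compared between the classes, which does not check the labelled cell type. Summed over each list, neuron markers were at 6141 to 6703 CPM in the high and 5546 to 6846 CPM in the low libraries. Neural progenitor markers were at 7012 to 7308 and 6885 to 7490 CPM, and astrocyte markers at 3608 to 4148 and 3600 to 4222 CPM. Neuron markers had 0 of 26 kept genes called and a median log2 difference of 0.06; MAP2 was at 900 to 1110 CPM in the high and 930 to 1172 CPM in the low libraries. Neural progenitor markers had 0 of 18, astrocyte markers 0 of 14 and proliferation genes 0 of 30 called. Of all kept genes 0.146% were called, so nothing is read from these counts of 0. Myeloid markers had 0 of 23 kept genes called higher and 3 (LYZ, CYBB and ITGB2) lower, where 0.0446% of all kept genes were called lower. Summed over its 34 listed genes, the myeloid list was at 36.7 to 40.4 CPM in the high and 40.4 to 54.4 CPM in the low libraries. The myeloid transcription factor SPI1 was at 0.279 to 0.461 CPM and 0.233 to 0.536 CPM, PTPRC, the pan-leukocyte CD45 gene, at 0.194 to 0.387 and 0.285 to 0.508 CPM, and CSF1R, the receptor for the macrophage growth factor, at 0.720 to 1.35 and 0.837 to 1.51 CPM, so these overlapped. Of the microglia markers, P2RY12 had 0 to 8 counts in the high and 1 to 6 in the low libraries, TMEM119 5 to 13 and 3 to 10, and CX3CR1 4 to 12 and 3 to 8. Whether cells of another type contributed to the differences was not tested, and in such bulk samples fewer cells of a type and less RNA per cell cannot be told apart.

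Of granulocyte markers 4 of 18 were kept and 0 called. S100A9, a calcium-binding protein of neutrophils and monocytes, had the highest log2 difference of that list, 1.75 (SE 0.38), at 0.348 to 1.12 CPM in the high and 0.0358 to 0.350 CPM in the low libraries. Interferon response genes had 0 of 33 called with a median of -0.01, and cytosolic ribosomal proteins 0 of 41 with a median of 0.05. Of all 38 lists 28 had no called gene, and the medians of the 24 among them with at least 5 kept genes lay between -0.13 and 0.07. Because 0.146% of all kept genes were called, 0 called in lists of these sizes is near that share and nothing is read from it. Of the 36 called genes, 20 were in at least 1 list.

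The 2 siRNA groups share no library, so the division could be looked at in each alone, although the same rule made it in both. The same sign of all 36 genes in siNC alone and siZCC alone follows from how they were chosen, since both groups entered the fit. Their median absolute log2 difference was 1.94 in siNC and 2.18 in siZCC. IL1B differed by 6.81 (SE 0.50) in siNC and 7.63 (SE 0.51) in siZCC, CXCL1 by 3.6 (SE 0.35) and 4.44 (SE 0.32), and LYZ by -2.37 (SE 0.20) and -2.40 (SE 0.16). Whether the division went with a different change in the 2 siRNA groups was tested by an interaction term, a comparison that the rule does not fix. Over 24671 genes 0 (0%) passed an adjusted p of 0.05 in edgeR's quasi-likelihood test, where 1177 had an unadjusted p under 0.05. DESeq2 and limma voom also gave 0, while edgeR without the filter on low counts gave 85. None of the 36 genes had an unadjusted interaction p under 0.05. They were called in a fit without the interaction term, which favours genes with a like difference in both groups, so that count is a description.

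**Figure D4:**
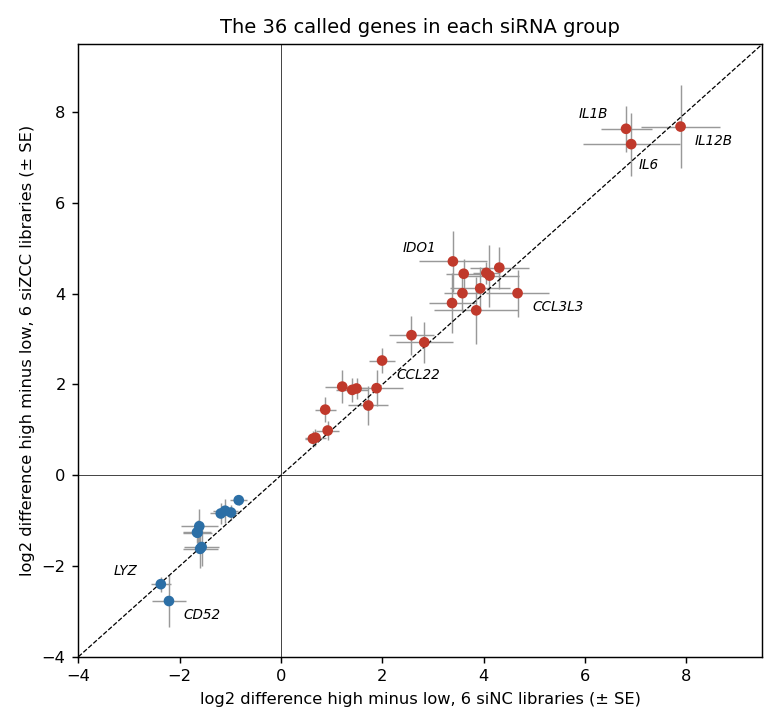
Each point is 1 of the 36 called genes, placed by its log2 difference between high and low IL1B libraries within the 6 siNC libraries (horizontal) and within the 6 siZCC libraries (vertical), with bars of 1 SE and a dashed line of equal difference. All 25 red points are above 0 and all 11 blue points below 0 on both axes, and IL1B, IL6 and IL12B lie farthest from 0.

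Fitted alone, the siNC libraries gave 7 called genes (0.0284%) and the siZCC libraries 310 (1.26%). Of the 310 genes called in either group, 249 (80.3%) had the same sign in the other. The same-sign share over all kept genes is not given here, so that percentage is a description. The 7 were also called in siZCC, and 29 of the 36 were called in siZCC. The other 281 genes of siZCC, 194 higher and 87 lower, differed little: their median absolute log2 difference was 0.22 in siZCC and 0.03 in siNC, 220 had the same sign in siNC, and 0 were called there. The median of their mean CPM was 55.9, far above the level of most of the 36. Among them were 4 of the 26 kept neuron markers, where 1.26% of all kept genes were called in siZCC. That count is a description. SYN1, a synaptic vesicle protein, differed by 0.27 (SE 0.05) in siZCC and 0.07 (SE 0.08) in siNC. NSG2, SYP and MAPT differed by 0.27, 0.22 and 0.26 in siZCC and 0.07, 0.06 and 0.03 in siNC. Genes of other lists went both ways in siZCC. The mesenchymal markers COL3A1, a collagen gene, and TAGLN, an actin-binding protein of smooth muscle, differed by -0.58 (SE 0.12) and -0.41 (SE 0.07). CD44, a hyaluronan receptor, differed by -0.34 (SE 0.06). In siNC the values were -0.19 (SE 0.11), 0.07 (SE 0.16) and 0.02 (SE 0.15). IL1RAP and the hypoxia and glycolysis gene SLC2A3 differed by -0.29 and -0.25 in siZCC. The metallothionein MT3, the metalloproteinase MMP17 and the receptors ACKR3 and CNTFR were higher there, by 0.44, 0.33, 0.20 and 0.17. In siNC those 4 differed by 0.16, 0.09, 0.01 and 0.03. The interaction test called none of these neuron markers and genes of other lists (adjusted p = 0.952 for MT3 and 0.935 for each other gene, edgeR's quasi-likelihood test). The 3 high siZCC libraries had the lowest totals of their group; with every library thinned to the smallest total, 309 genes were called in siZCC and 6 in siNC.

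The 6 high libraries differed among themselves. siNC replicate 6, siZCC replicate 4 and siZCC replicate 5 had 10.4 to 16.0 CPM of IL1B, and the other 3 had 5.23 to 6.05 CPM. These stand as 2 separate sets of 3, so no correlation is given. Of the 24 other higher genes, 16 had the same 3 libraries above the other 3 and 0 had them below. Among all kept genes, 822 (3.33%) had them above and 962 (3.9%) below. The 24 were chosen for going with IL1B, and 8 of the 16 passed the filter only through the high libraries, so the count is a description. CXCL5 was at 8.64, 11.1 and 7.55 CPM in those 3 libraries and at 3.32, 3.13 and 3.05 CPM in siNC replicates 2 and 3 and siZCC replicate 1. IL6 was at 0.920, 1.08 and 0.826 CPM against 0.271, 0.321 and 0.390 CPM, and PTGS2 at 1.17, 1.12 and 0.753 CPM against 0.399, 0.312 and 0.331 CPM. Thus these genes were higher in the same libraries in which IL1B was higher.

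Of the 11 lower genes, LYZ, CYBB, CD84 and CD52 were lower in the same 3 libraries than in the other 3, FYB1 was above and 6 overlapped. Among all kept genes, 3.9% were below and 3.33% above in those libraries. The 11 were chosen by the division, so their count too is a description. LYZ was at 1.03, 1.13 and 0.959 CPM in the 3 libraries with most IL1B and at 1.61, 1.71 and 1.83 CPM in the others. Among higher genes that did not follow this order, IL12B was at 0.318, 0.441 and 0.231 CPM against 0.263, 0.203 and 0.201 CPM, SLAMF7 at 0.980, 1.15 and 0.874 CPM against 0.992, 0.819 and 0.850 CPM, and CCL22 at 1.27, 1.5 and 0.838 CPM against 0.975, 0.861 and 0.968 CPM. These 3 separated all high from all low libraries but overlapped within the high ones.

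**Figure D5:**
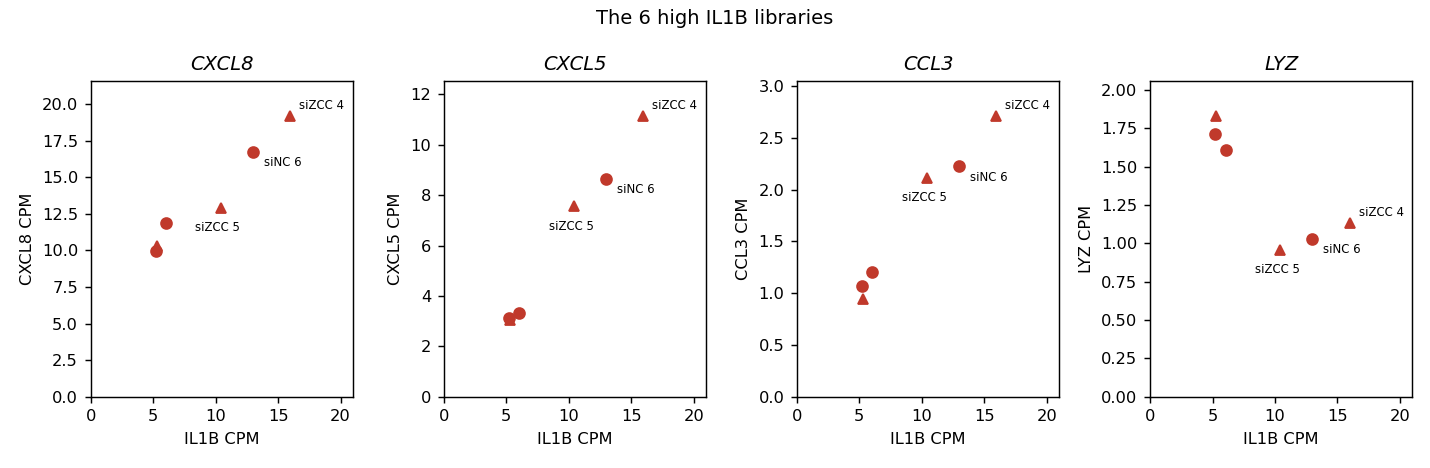
Each panel plots the CPM of 1 gene against the CPM of IL1B in the 6 high IL1B libraries, with circles for siNC and triangles for siZCC; siNC 6, siZCC 4 and siZCC 5 are labelled, and the 3 points at the left are siNC 2, siNC 3 and siZCC 1. CXCL8, CXCL5 and CCL3 are higher and LYZ is lower in the 3 libraries with the most IL1B.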

How the data were processed

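Total RNA of 12 libraries was measured. Lysis was in Qiazol and the library kit was NEBNext Ultra II Directional, per the labels' protocols. Per the submitters' processing notes the tools were bcl2fastq 2.17, STAR 2.7.6a and featureCounts 2.0.1 and the build GRCh38. Neither annotation nor strand setting is given in the sources used here, so overlapping genes may share reads. The authors deposited whole-number counts per gene symbol (59653 symbols, 48221 with a count), which entered edgeR 4.0.16 (R 4.3.3) unchanged. The members, gene lists and tests were chosen with earlier results of these data known.

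Genes were kept by filterByExpr by siRNA group (about 0.0997 CPM in at least 6 libraries). TMM scaling and the quasi-likelihood test with siRNA group and IL1B class were used, with Benjamini-Hochberg adjustment over 24671 genes. CPM values are TMM-scaled. The SE of a fitted log2 difference is the absolute difference divided by the square root of the F statistic of that test. The depth makes counting error small for genes well above the filter; the biological coefficient of variation was 6.18%. Counting intervals and floors cover counting error only. The test was checked on simulated data. The rule for naming genes took the markers, the called genes averaging 5 CPM or more whose classes did not overlap (largest 12 and 4 smallest p per direction), the 4 smallest p of called genes in each list, and every kept gene of the IL-1, ELR chemokine, CC chemokine and IL-6 lists; other genes named were chosen after their values were seen. Alternatives were other scalings and filters, DESeq2 1.42.0, limma 3.58.1 voom, a replicate block, a continuous IL1B term, no covariate, each siRNA group alone, each library left out, and, chosen after seeing the data, thinning. Positions are from GENCODE release 29, which held 35 of the 36 called genes, and promoters from RefSeq GRCh38.p14. Python 3.11.15, pandas 2.3.3 and matplotlib 3.10.9 were used.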

Additional observations from a re-analysis of the deposited data

Results flagged for a closer look

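Within the 6 high or the 6 low libraries, 1 library stood far from the other 5 in 6 of 76 sets examined, measured as the gap to its nearest neighbour divided by the whole range; chance gives about 1 in 20. The mitochondrial share was 4.02% in siNC replicate 1 against 4.28 to 4.36% in the other low libraries (gap 0.768). In the low libraries siNC replicate 4 had the most ITGB2, 4.34 CPM against 2.78 to 3.25 (gap 0.695), and the most CYBB, 4.06 CPM against 2.58 to 3.10 (gap 0.647), and siNC replicate 5 had the most PECAM1, 0.425 CPM against 0.322 to 0.360 (gap 0.629). In the high libraries SRGN was lowest in siZCC replicate 1, at 0.626 CPM against 0.777 to 0.831 (gap 0.736), and ITGB2 highest in siZCC replicate 4, at 2.47 CPM against 1.74 to 2.0 (gap 0.64).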

How the results depend on the processing

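All 36 called genes kept the sign of their difference under every alternative that tested them. The count of 36 became 371 without a filter on low counts, 15 with a mean count of at least 50 (16 of the 36 were then tested), 7 in siNC alone and 310 in siZCC alone; leaving out 1 library at a time gave 29 to 57, the highest without siNC replicate 6, and 26 genes were called in all 12 such fits. The other settings gave 31 to 46. The count of 153 genes separated in both siRNA groups became 243 without a filter and 90 with the mean count of at least 50. The count of 0 for the interaction became 85 without a filter and was 0 under the other settings run. The cause of these shifts was not tested, beyond the fewer genes or samples that some settings use.

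Libraries with the same replicate number deviated from their siRNA group means with correlations of -0.077 to 0.018, and from the means of their siRNA group and IL1B class, which take out the difference between the classes, with correlations of 0.0018 to 0.110. Every number would have had to exceed 0.1 to count as pairing, which number 1 alone did by the second measure. With the replicate block 46 genes were called, 33 of them among the 36. Genes called under every alternative that tested them were IL1B, IL12B, CXCL8, CXCL1, CCL3, CCL22 and LYZ. With 1 library left out, 10 genes lost the call in at least 1 fit; CXCL2 and GPR84 lost it under 14 settings in all, FYB1 under 13, and PTGS2 and PECAM1 under 11. Depth limits genes with few counts, IL6 and IL12B among them, where fold sizes are bounds or wide intervals.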

Other observations

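A fit of all 48221 genes with a count called 371, of which 35 lay below the filter on low counts. Of these 35, 9 were higher and 4 lower without overlap of scaled CPM over the 12 libraries. The share without overlap over all genes below the filter is not given here. In that fit the SE was 0.13 for IL1B and 0.08 for CXCL8, against 0.42 and 0.21 with the filter. For FYB1 it was larger, 0.32 against 0.25. The 35 genes were picked out after their values were seen and are given as counts. Several CC chemokines were among the higher ones. CCL4L2, the copy of CCL4, had 8 to 41 counts in the high and 0 or 1 in the low libraries. CCL1, a ligand of CCR8, had 4 to 31 counts in the high libraries and 0 in all 6 low ones, at least 33.3-fold higher against a floor of 3 counts over the 6 low libraries. CCL20, the ligand of CCR6, had 3 to 28 counts in the high and 0 or 1 in the low libraries, a ratio of 37.6 with a 95% counting interval of 10.04 to 316. CCL7, a monocyte chemokine next to CCL2, had 2 to 9 counts in the high and 0 to 2 in the low libraries, so that raw counts met at 2 while CPM did not. The others were SLAMF1, the plasminogen activator inhibitor SERPINB2 (46 counts summed over the high and 3 over the low libraries), the fatty acid receptor FFAR2, VNN2 and AC007009.1; raw counts of SERPINB2 and FFAR2 also met, at 2 and 1.

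The 4 lower genes are known from macrophages and monocytes: VSIG4, a complement receptor, with 4 counts summed over the high and 56 over the low libraries, MNDA with 7 and 49, DCSTAMP with 11 and 53, and FPR3 with 23 and 69. FPR2 and FPR3 both lie in the formyl peptide receptor cluster of chromosome 19 (FPR2 at chr19:51752026-51770526, FPR3 at chr19:51795163-51826189, plus strand, GRCh38), and FPR2 was higher where FPR3 was lower. The FPR1 gene on the other strand overlaps both, so shared reads are possible. CCR2, the receptor of CCL2, had 4 counts summed over the high and 55 over the low libraries, with classes that overlapped.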
